A study of Mus musculus with 6 samples.

Results

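Fatty acid desaturases and elongases are the enzymes of the endoplasmic reticulum that decide the length and the number of double bonds of a fatty acid. Of 10 such genes listed, Scd1, Scd2, Fads1, Fads2, Fads3, Elovl1, Elovl2, Elovl3, Elovl5 and Elovl6, 9 had a probe set of their own on the array, out of 22180 genes measured. The list was chosen by function around Scd1, whose measured difference between the 2 mouse strains compared here was known at that point, so the strain differences of these genes are given as a description with no test. For each gene the 1 probe set annotated to it alone was read. The probe set of Scd2 is annotated to the microRNA Mir5114 as well, so Scd2 is not counted among the 9.

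The study measured liver RNA of 3 Balb/c and 3 Balb/cBy mice on Affymetrix arrays, 1 array per mouse. All mice were male, were kept in individual cages, received a diet with 58% of energy from fat for 12 weeks starting at 8 weeks of age, and were 20 weeks old at sampling. Balb/cBy is a substrain of Balb/c that is known to carry a deletion in Acads, the short-chain acyl-CoA dehydrogenase, and no other allele or agent is named for either group. The labels give neither the supplier of the Balb/c mice nor the time of day at sampling, and no mice on another diet were analysed here. Levels are log2 values, so a difference of 1 is a doubling, and levels of different genes are not compared with each other.

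Of the hepatocyte genes that define the tissue, Alb, serum albumin, lay between 14.16 and 14.22 on all 6 arrays, while Serpina1a, an antitrypsin gene, ran from 10.68 to 11.85. Array medians lay between 7.66 and 7.74, and correlations between arrays over all probe sets between 0.972 and 0.988. In the fit of limma across all 22180 genes, 0 genes (0%) passed an adjusted p of 0.05, the smallest adjusted p being 0.166. Without adjustment 833 genes (3.76%) had p under 0.05, and so had 2 of the 9 desaturase and elongase genes, Scd1 and Elovl1, while 0 of the 9 passed with adjustment. At an unadjusted p under 0.01 there were 155 genes (0.699%), and 1 of the 9, Scd1. The values of the strains did not overlap for 1736 genes (7.83%), against the same 2 of 9. The mean was lower in Balb/cBy for 11297 genes (50.9%), against 5 of 9, and the median difference was -0.04 over the 9 genes and -0.0028 over all genes. These counts come from the contrast on which the genes were selected, so nothing is read from them. In whole liver, fewer cells of a type and less RNA per cell cannot be told apart.

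Stearoyl-CoA desaturases put the first double bond into a saturated fatty acid, mainly making palmitoleate and oleate, the main acyl chains of stored triglyceride. Fads1 and Fads2, the delta-5 and delta-6 desaturases, alternate with elongases of the Elovl family to turn linoleate and linolenate from the diet into arachidonate, eicosapentaenoate and docosahexaenoate. In liver, many of these genes are known targets of SREBP-1c, LXR and PPAR-alpha, and Elovl3 is known for its daily rhythm and its higher level in males.

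Among these genes, 1 promoter window lying wholly upstream of the annotated gene was at hand for Fads2, Elovl2, Elovl5 and Elovl6. They are shown to set the start regions of these genes, which differ in base composition and motifs, beside the levels given further on. Each is the 250 bases before the start site, read 5′ to 3′ in the direction of the gene from RefSeq on GRCm38.p6. Capitals mark matches, on either strand, to 4 short motifs: CCAAT, which NF-Y binds, GGGCGG, which Sp1 binds, CACGTG, the E-box, and TCACNCCA, a core of SREBP sites.
Fads2, chr19:10101504-10101753, minus strand: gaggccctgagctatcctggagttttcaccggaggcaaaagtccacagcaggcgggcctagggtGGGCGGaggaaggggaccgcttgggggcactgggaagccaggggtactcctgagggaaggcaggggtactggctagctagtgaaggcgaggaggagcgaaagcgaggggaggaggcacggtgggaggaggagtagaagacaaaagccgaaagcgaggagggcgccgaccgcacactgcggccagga
Elovl2, chr13:41220404-41220653, minus strand: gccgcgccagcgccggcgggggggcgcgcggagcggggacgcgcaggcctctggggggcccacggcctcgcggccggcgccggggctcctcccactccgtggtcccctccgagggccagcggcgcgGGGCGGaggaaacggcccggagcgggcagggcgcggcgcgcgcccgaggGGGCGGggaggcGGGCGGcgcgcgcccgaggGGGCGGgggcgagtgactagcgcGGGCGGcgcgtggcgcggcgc
Elovl5, chr9:77917115-77917364, plus strand: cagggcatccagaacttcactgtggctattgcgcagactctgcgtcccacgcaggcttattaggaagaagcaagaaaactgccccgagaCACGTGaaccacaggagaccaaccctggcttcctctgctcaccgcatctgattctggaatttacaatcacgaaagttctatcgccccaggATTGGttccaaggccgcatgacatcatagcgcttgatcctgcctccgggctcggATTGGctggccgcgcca
Elovl6, chr3:129532136-129532385, plus strand: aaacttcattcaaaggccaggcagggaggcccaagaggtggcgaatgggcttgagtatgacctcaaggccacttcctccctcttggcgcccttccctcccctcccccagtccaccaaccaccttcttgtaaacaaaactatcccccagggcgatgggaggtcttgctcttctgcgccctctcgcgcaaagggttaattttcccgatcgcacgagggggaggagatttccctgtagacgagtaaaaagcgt

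The window of Elovl5 held CCAAT 2 times, starting 71 and 17 bases upstream of the start site on the opposite strand, and 1 E-box 161 bases upstream. The window of Fads2 held GGGCGG 1 time, 186 bases upstream, and that of Elovl2 held it 5 times, in a sequence of 87.2% G and C. The window of Elovl6, with 56.4% G and C, held none of the 4 motifs, and TCACNCCA was in none of the 4 windows. Over all 32851 windows of the same length, CCAAT was in 33.8%, GGGCGG in 32.7%, CACGTG in 6.02% and TCACNCCA in 3.67%. A match is a description of letters, not a bound site.

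Scd1, the main stearoyl-CoA desaturase of mouse liver, was lower in Balb/cBy. Its log2 levels were 13.21, 13.09 and 13.42 in Balb/c and 11.92, 12.41 and 12.66 in Balb/cBy, each in the order of replicates 1, 2 and 3. Every Balb/cBy array lay below every Balb/c array, with the highest Balb/cBy value at 12.66 and the lowest Balb/c value at 13.09. The means were 13.24 ± 0.16 and 12.33 ± 0.37 (SD, n = 3 each), a log2 difference of -0.91 (moderated SE 0.18) or 0.532-fold. The Balb/cBy arrays were spread more widely, and Balb/cBy replicate 1 was the lowest. Without that array the difference was -0.71, and over the removal of each array in turn it ran from -1.07 to -0.71.

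The other stearoyl-CoA desaturase genes of the cluster did not show a measured difference of that size. Scd3 and Scd4 had Balb/c means of 7.67 and 7.63, near the array medians of 7.66 to 7.74, so the size of their differences is uncertain. The probe set shared by Scd2 and Mir5114 read 9.20, 9.04 and 8.67 in Balb/c and 8.72, 9.16 and 9.16 in Balb/cBy, with overlapping values and a log2 difference of 0.04 (SE 0.17). Scd4 read 7.67, 7.64 and 7.59 in Balb/c and 7.51, 7.51 and 7.35 in Balb/cBy. Its values did not overlap, but the log2 difference was -0.17 (SE 0.09). For Scd3 the log2 difference was -0.16 (SE 0.22), and 0.04 once Balb/c replicate 2 was removed. Scd3, Scd2, Scd4 and Scd1 follow each other on chromosome 19, with no other protein-coding gene between them in the RefSeq table of GRCm38.p6. Probes of such close paralogs can share signal, so the values of these genes are uncertain to that extent.

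**Figure D1:**
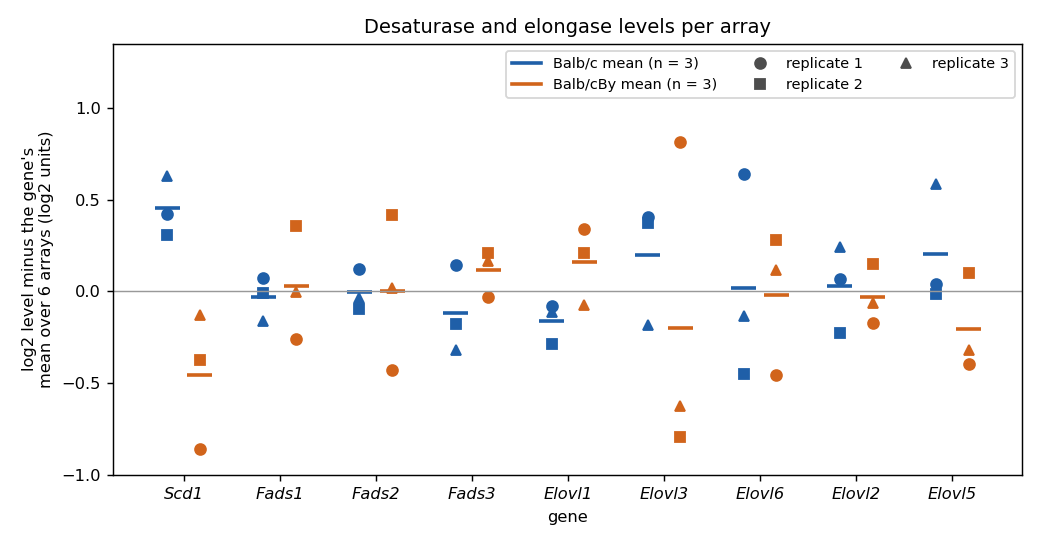
Log2 level of each of the 9 genes on each array (vertical axis), minus the mean of that gene over the 6 arrays. Points are arrays, coloured by strain and shaped by replicate number, and bars are means of 3 arrays. For Scd1 the 3 Balb/cBy points lie below the 3 Balb/c points. For Elovl3 the Balb/cBy points lie at both ends of the range.

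Fads1 and Fads2, which act in turn in the synthesis of arachidonate, had strain means that differed by little. Fads1 read 12.27, 12.19 and 12.03 in Balb/c and 11.94, 12.55 and 12.19 in Balb/cBy. The Balb/cBy arrays held both the lowest and the highest value, and the log2 difference was 0.06 (SE 0.16). Fads2 read 13.21, 12.997 and 13.05 in Balb/c and 12.66, 13.51 and 13.11 in Balb/cBy. It too had its lowest value in Balb/cBy replicate 1 and its highest in Balb/cBy replicate 2, with a log2 difference of 0.01 (SE 0.19). The sign of neither difference was stable. Leaving out Balb/cBy replicate 2 gave -0.10 for Fads1 and -0.20 for Fads2. Leaving out Balb/cBy replicate 1 gave 0.21 and 0.22. The SD in Balb/cBy was 0.31 for Fads1 and 0.42 for Fads2, against 0.12 and 0.11 in Balb/c.

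Fads3, the third gene of the cluster, is known to act on sphingoid bases. It read 8.63, 8.31 and 8.17 in Balb/c and 8.46, 8.70 and 8.66 in Balb/cBy, so 1 Balb/cBy array lay within the Balb/c values. Its log2 difference was 0.23 (SE 0.14), from 0.13 to 0.37 when each array was left out in turn. Fads3, Fads2 and Fads1 are direct neighbours among the protein-coding genes of chromosome 19.

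Elovl1 extends saturated and monounsaturated chains to the very long chains of sphingolipids. It read 9.30, 9.09 and 9.26 in Balb/c and 9.72, 9.59 and 9.30 in Balb/cBy. All 3 Balb/cBy values were higher, but the nearest arrays of the strains were 0.0056 apart. The log2 difference was 0.32 (SE 0.13), or 1.25-fold. It was 0.26 when quantile normalization was repeated, and the strains then overlapped, and 0.17 with weighted arrays.

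Elovl6, which extends palmitate to stearate, the substrate of Scd1, varied more between mice than between strains. It read 10.74, 9.64 and 9.96 in Balb/c and 9.63, 10.37 and 10.21 in Balb/cBy. The highest and the next to lowest value were both Balb/c arrays, and the log2 difference was -0.04 (SE 0.29). Leaving out Balb/c replicate 2 gave -0.28, and leaving out Balb/c replicate 1 gave 0.27. Its SD within strains, 0.48, exceeded that of 98.5% of all genes, for which the median was 0.14.

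Elovl3 extends saturated and monounsaturated chains in liver, skin and brown fat, and was the most variable of the 9 genes. It read 12.54, 12.51 and 11.95 in Balb/c and 12.95, 11.34 and 11.51 in Balb/cBy. Balb/cBy replicate 1 was the highest of all 6 arrays, while the other 2 Balb/cBy arrays were the lowest. The log2 difference was -0.40 (SE 0.39), and Balb/cBy replicate 1 weighed most on it. When that array was removed, the difference was -0.91 and the strains no longer overlapped. Removing Balb/cBy replicate 2 gave -0.10, removing Balb/cBy replicate 3 gave -0.19, and weighting the arrays gave -0.78. The SD of Elovl3 within strains, 0.67, exceeded that of 99.5% of all genes.

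Elovl2 and Elovl5 extend polyunsaturated chains, Elovl5 mainly at the shorter and Elovl2 at the longer steps toward docosahexaenoate. Elovl5 read 11.66, 11.60 and 12.20 in Balb/c and 11.22, 11.72 and 11.29 in Balb/cBy. The strains overlapped through Balb/cBy replicate 2, which was above Balb/c replicates 1 and 2, and the highest value was Balb/c replicate 3. The log2 difference was -0.41 (SE 0.19), or 0.753-fold, and -0.22 once Balb/c replicate 3 was removed. Elovl2 read 11.99, 11.70 and 12.16 in Balb/c and 11.75, 12.08 and 11.86 in Balb/cBy. Its values were interleaved, with a log2 difference of -0.06 (SE 0.14). Removing Balb/c replicate 2 gave -0.18, and removing Balb/c replicate 3 gave 0.05.

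**Figure D2:**
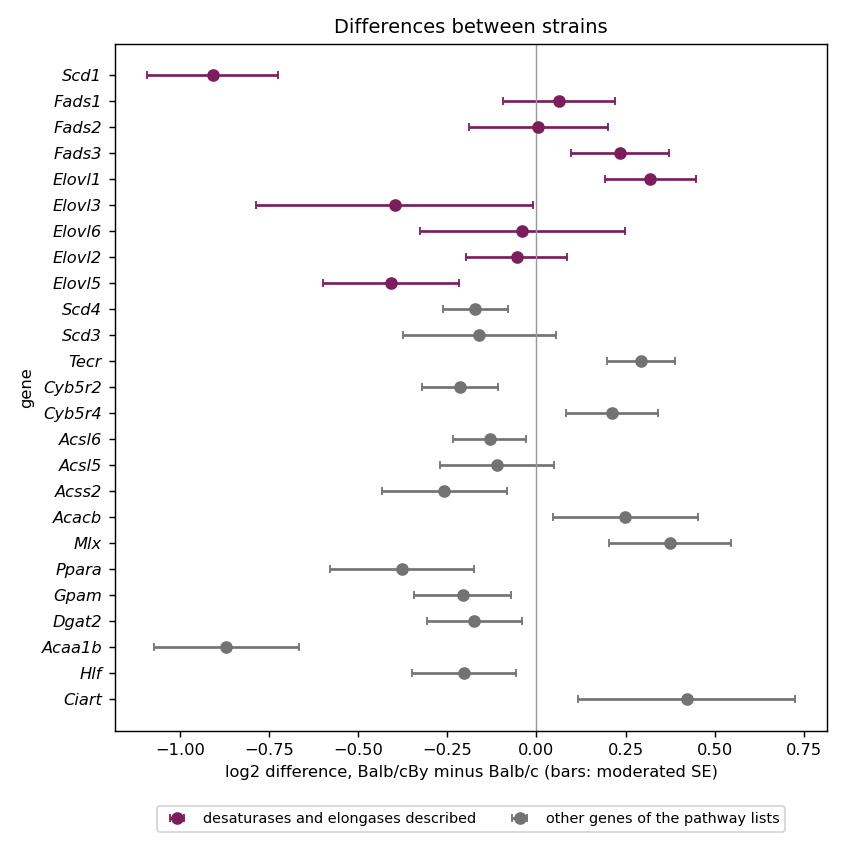
Log2 difference, Balb/cBy minus Balb/c, of the 9 desaturase and elongase genes and of the other genes named from the pathway lists (horizontal axis; bars are moderated SE, n = 3 arrays per strain). Scd1, at -0.91, and Acaa1b, at -0.87, lie farthest from 0, and none of the genes shown passed an adjusted p of 0.05.

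The 9 genes did not vary as 1 block over the 6 mice. Of the 36 pairs of these genes, 22 had a positive and 14 a negative Pearson correlation over the 6 arrays, from r = -0.86 to 0.94. The highest was between Fads1 and Fads2 (r = 0.94, exact permutation p = 0.0139, Spearman's rho 0.94, exact permutation p = 0.0167). The order of their arrays was nearly the same. The correlation was 0.59 without Balb/cBy replicates 1 and 2, the arrays farthest from the median, and 0.95 with strain means removed. The lowest was between Scd1 and Elovl1 (r = -0.86, exact permutation p = 0.0208, rho -0.83, exact permutation p = 0.0583). Its r was -0.15 without the same 2 arrays, which leaves only 1 Balb/cBy array, and -0.62 with strain means removed. Neither gene overlapped between strains, and the permutation did not keep the strains apart. In this r the strain difference, the weight of those arrays and variation between mice cannot be told apart. Adjusted over the 36 pairs, 0 passed, the smallest adjusted p being 0.375 for r and 0.3 for rho in the exact permutation test.

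Balb/cBy replicate 1 held the lowest value of 5 of the 9 genes, Scd1, Fads1, Fads2, Elovl6 and Elovl5, and the highest value of 2, Elovl1 and Elovl3. Of 10 genes listed under fatty acid synthesis it held the lowest value of 7 and the highest value of 2, Acacb and Oxsm. Over all genes it held the lowest value of 14.7% and the highest value of 20.9%. Among the 7 was Thrsp, which is induced with lipogenesis and read 11.71, 11.22 and 10.97 in Balb/c and 10.42, 11.98 and 11.80 in Balb/cBy. Without Balb/cBy replicate 1, 4 of the 9 genes did not overlap between strains (Scd1 and Elovl3 lower, Fads3 and Elovl1 higher), where 26.9% of all genes did not. The mean was then lower in Balb/cBy for 3 of 9, Scd1, Elovl3 and Elovl5.

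**Figure D3:**
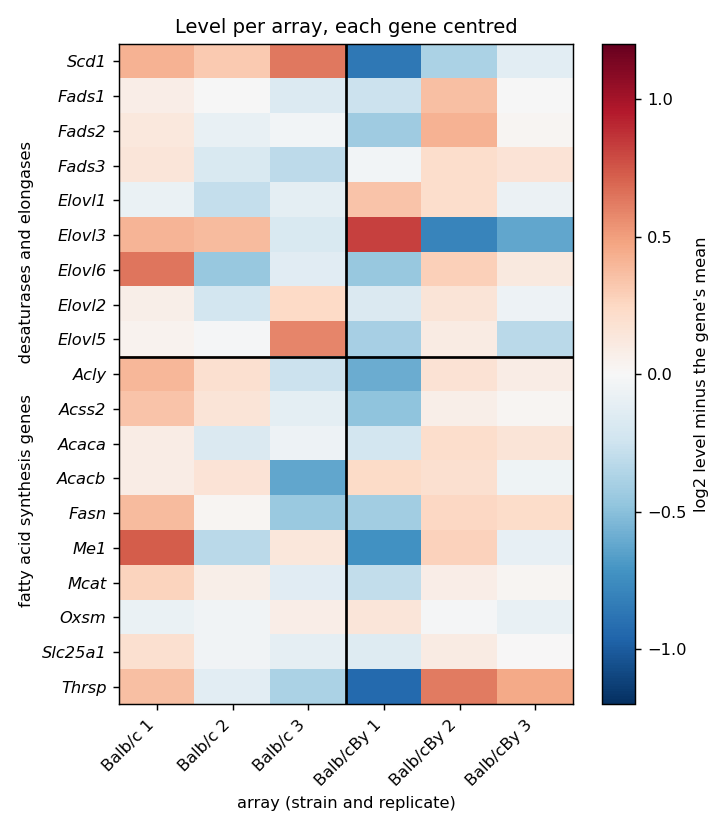
Log2 level per array minus the mean of each gene (colour, in log2 units), for the 9 desaturase and elongase genes above the horizontal line and 10 fatty acid synthesis genes below it. Columns are arrays by strain and replicate number. Scd1 is low in all 3 Balb/cBy columns. Of the 10 genes listed under fatty acid synthesis, Balb/cBy replicate 1 holds the lowest value of 7 and the highest value of 2, Acacb and Oxsm.

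Elovl3 was set against 14 measured clock genes, whose transcripts cycle over the day. Of these 14 relations, 5 had a positive and 9 a negative r, and 6 had an unadjusted exact permutation p under 0.05. With adjustment over the 14, 0 passed, the smallest adjusted p being 0.0519 for r and 0.117 for rho in the exact permutation test. Arntl, the clock activator BMAL1, read 8.58, 8.86 and 7.92 in Balb/c and 9.04, 7.56 and 7.91 in Balb/cBy. As for Elovl3, Balb/cBy replicate 1 was highest and Balb/cBy replicate 2 lowest. Over the 6 arrays Elovl3 and Arntl had r = 0.96 (exact permutation p = 0.00972) and rho 0.94 (exact permutation p = 0.0167). The r was 0.90 without the 2 arrays farthest from the median of Arntl, Balb/cBy replicates 1 and 2, and 0.96 with strain means removed. Here and below, the 2 arrays left out were chosen on the clock gene and not on Elovl3, so they differ between clock genes.

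The r of 3 further clock genes, named after their values were seen, was negative. Per3, a period gene, read 9.02, 8.71 and 9.20 in Balb/c and 8.42, 9.43 and 9.24 in Balb/cBy, and its r with Elovl3 was -0.92 (exact permutation p = 0.00833, rho -0.94, exact permutation p = 0.0167; r = -0.94 without the 2 farthest arrays). For Per1 it was -0.94 (exact permutation p = 0.0111, rho -0.77, exact permutation p = 0.103; r = -0.77 without the 2 farthest arrays). Dbp, a clock output gene, read 9.24, 8.88 and 10.45 in Balb/c and 8.62, 10.18 and 9.94 in Balb/cBy, with r = -0.86 (exact permutation p = 0.05, rho -0.77, exact permutation p = 0.103; r = -0.96 without the 2 farthest arrays). Also negative were Ciart (r = -0.90, exact permutation p = 0.0403), Cry2 (r = -0.86, exact permutation p = 0.0319) and Tef (r = -0.78, exact permutation p = 0.0389). For each of them rho was -0.77 (exact permutation p = 0.103). Among the clock genes with r nearer to 0 were Clock at 0.50, Npas2 at 0.61, Nfil3 at 0.59 and Hlf at -0.49. With 3 arrays a strain, no correlation within a strain was computed. None of the 14 clock genes passed between strains (6 higher and 8 lower in Balb/cBy, median log2 difference -0.06). Those with the smallest p were the clock output gene Hlf, at -0.20 (SE 0.15), and the repressor Ciart, at 0.42 (SE 0.30). Removing Balb/cBy replicate 1 gave -0.09 for Hlf and 0.74 for Ciart, and removing Balb/cBy replicate 3 gave 0.17 for Ciart. The labels give no time of day, and the part of the clock in the spread of Elovl3 was not tested.

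**Figure D4:**
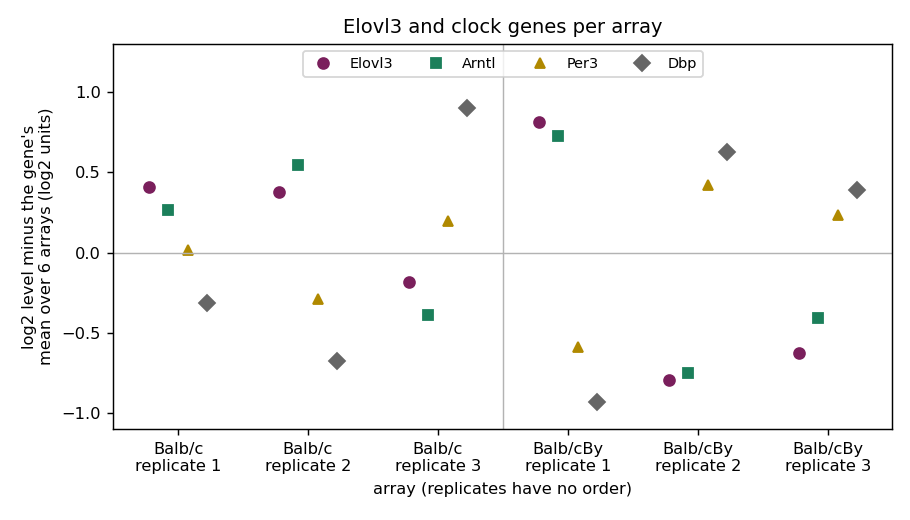
Log2 level of Elovl3, Arntl, Per3 and Dbp on each array (vertical axis), minus the mean of each gene over the 6 arrays. Points are single arrays. Elovl3 and Arntl are highest in Balb/cBy replicate 1 and lowest in Balb/cBy replicate 2, while Per3 and Dbp are lowest in Balb/cBy replicate 1.

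The further genes of the pathway were taken from 9 lists with 89 entries, 80 of them measured. Of these 80, 0 passed an adjusted p of 0.05 in limma in either direction, 2 (2.5%) had an unadjusted p under 0.05 and 5 (6.25%) did not overlap between strains, beside 3.76% and 7.83% of all genes. The median difference of 8 of the 9 lists turned its sign when 1 array was removed, the peroxisomal list being the exception. The remaining steps of the elongation cycle are carried out by a ketoreductase, dehydratases and a reductase shared by all elongases. Of these 6 genes, 3 were higher and 3 lower, with a median log2 difference of 0.04. Tecr, the reductase that ends each cycle, read 11.88, 11.76 and 11.80 in Balb/c and 12.02, 12.22 and 12.08 in Balb/cBy. Its values did not overlap, and the log2 difference was 0.29 (SE 0.10, unadjusted p = 0.0146, adjusted p = 0.999 in limma). Hsd17b12, the ketoreductase, had a log2 difference of -0.11 (SE 0.12), from -0.21 to -0.03 when each array was removed in turn.

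Cytochrome b5 and its reductases pass electrons to the desaturases. Of 6 such genes, 5 were higher and 1 lower, with a median log2 difference of 0.04, and Cyb5a, the microsomal cytochrome b5, differed by 0.07 (SE 0.11), or by -0.0051 once Balb/c replicate 2 was removed. Cyb5r2, a reductase, differed by -0.21 (SE 0.11) and did not overlap between strains, and Cyb5r4 differed by 0.21 (SE 0.13). They were at -0.14 once Balb/cBy replicate 2, and at 0.13 once Balb/c replicate 2, was removed. For the 5 further desaturase and elongase genes (Scd3, Scd4, Fads6, Elovl4 and Elovl7) the median was -0.06, with 2 higher and 3 lower.

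Genes listed under fatty acid synthesis had strain differences on both sides of 0. The list is wider than the enzymes that make the saturated chains on which Scd1 acts, and includes Acacb, Mcat, Oxsm and Thrsp. Of 10 genes of fatty acid synthesis, 5 were higher and 5 lower in Balb/cBy, with a median log2 difference of -0.0024. Fasn, fatty acid synthase, read 11.76, 11.41 and 10.94 in Balb/c and 10.97, 11.63 and 11.61 in Balb/cBy, a log2 difference of 0.03 (SE 0.24). Removing Balb/c replicate 3 gave -0.18, and removing Balb/cBy replicate 1 gave 0.25. Acss2, which makes acetyl-CoA from acetate, differed by -0.26 (SE 0.18; -0.08 when Balb/cBy replicate 1 was removed), and Acacb, the acetyl-CoA carboxylase at mitochondria, by 0.25 (SE 0.20; 0.0015 without Balb/c replicate 3).

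Of 17 genes that regulate desaturase and elongase transcription, 8 were higher and 9 lower, with a median of -0.02. Srebf1, which encodes SREBP-1, read 10.61, 10.12 and 10.17 in Balb/c and 9.65, 10.35 and 10.44 in Balb/cBy, a log2 difference of -0.15 (SE 0.22) that was 0.10 once Balb/cBy replicate 1 was removed. Ppara, the fatty acid receptor PPAR-alpha, differed by -0.38 (SE 0.20), and by -0.16 once Balb/cBy replicate 1 was removed. Mlx, the partner of ChREBP, differed by 0.37 (SE 0.17), and by 0.23 once Balb/c replicate 2 was removed.

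Of 6 long-chain acyl-CoA synthetase and transporter genes, 2 were higher and 4 lower, with a median of -0.03. Acsl6 and Acsl5, acyl-CoA synthetases, had the smallest p among them and differed by -0.13 (SE 0.10) and -0.11 (SE 0.16). For Acsl6 this was -0.05 once Balb/cBy replicate 3 was removed, and for Acsl5 -0.0068 once Balb/cBy replicate 1 was. Of 10 genes listed under esterification of the products, 4 were higher and 6 lower, with a median of -0.08. The list also holds genes that do not esterify, such as the phosphatidate phosphatase Lpin1. Gpam, which starts glycerolipid synthesis, differed by -0.21 (SE 0.14), and Dgat2, which completes triglyceride, by -0.17 (SE 0.13). Both were smaller without Balb/cBy replicate 1, at -0.08 and -0.03.

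The last step of docosahexaenoate synthesis is a round of beta-oxidation in peroxisomes. Each of the 6 measured genes of that list had a lower mean in Balb/cBy (median log2 difference -0.19), and 0 passed the adjusted threshold. Balb/cBy replicate 1 was the lowest array for 5 of the 6. Without it 5 of the 6 were lower, with a median of -0.12, Abcd2 being at 0.08 and Ehhadh at -0.05. Removing Balb/c replicate 1 turned Abcd2 to 0.03, and removing Balb/c replicate 3 turned Scp2 to 0.06. Acaa1b, a peroxisomal thiolase, read 10.995, 10.98 and 10.80 in Balb/c and 9.54, 10.32 and 10.30 in Balb/cBy. Its values did not overlap, with a log2 difference of -0.87 (SE 0.20, unadjusted p = 0.00251, adjusted p = 0.999 in limma).

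The genes whose levels most resembled those of Scd1 were sought among 6581 genes with a range of at least 0.5 over the arrays. Tfam, a factor of mitochondrial DNA transcription, came first with Pearson's r = 0.99 over 6 arrays. It was followed by Pank3, a pantothenate kinase of coenzyme A synthesis (0.98), Cebpa, a transcription factor of hepatocytes (0.98), the kinase Map2k6 (0.97) and the thioredoxin-like Tmx3 (0.97). Tfam read 8.34, 8.37 and 8.47 in Balb/c and 7.91, 8.07 and 8.17 in Balb/cBy, and as for Scd1 replicate 3 was the highest of each strain and Balb/cBy replicate 1 the lowest of all. Their log2 differences between strains, from -0.42 (SE 0.13) for Pank3 to -0.27 (SE 0.11) for Tmx3, were smaller than that of Scd1 in size, and none passed with adjustment. In all 31 of the 6581 genes (0.471%) had r of at least 0.9 with Scd1, and 35 (0.532%) had r of -0.9 or lower. With strain means removed, the 5 most alike were Epha1, Gpam, Mfsd14b, Lpl and Map2k6, with r from 0.991 down to 0.988, while 116 genes (1.76%) had r of at least 0.9 and 109 (1.66%) of -0.9 or lower. These genes were picked for likeness over the same 6 arrays, so no p is given.

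Markers of other cell types were read beside these values. For 7 adipocyte markers measured, 4 higher and 3 lower with Cidec farthest apart at a log2 difference of 0.52, the mean log2 level ran from 8.14 to 8.43 in Balb/c and from 8.06 to 8.79 in Balb/cBy. Stellate cell markers were higher for 7 of 8, from 9.42 to 9.78 and from 9.65 to 9.998, led by Lum with a log2 difference of 0.53. Lymphocyte markers were lower for 7 of 7, from 7.43 to 7.59 and from 7.32 to 7.36, with Ms4a1 at -0.27. Macrophage markers were split at 4 and 4 (Cd68 at 0.43), from 9.35 to 10.17 and from 9.60 to 10.06. The ranges were 9.90 to 10.09 and 9.87 to 10.22 for endothelial cells (5 of 8 higher, Lyve1 at 0.30), 7.57 to 7.65 and 7.53 to 7.67 for cholangiocytes (2 of 6 higher, Muc1 at 0.18), 7.05 to 7.21 and 7.18 to 7.31 for neutrophils (5 of 8 higher, Retnlg at 0.40), and 8.22 to 8.41 and 8.39 to 8.50 for the 2 erythroid genes, both higher (Slc4a1 at 0.18). Hepatocyte markers ran from 12.99 to 13.11 and from 13.07 to 13.25 (4 of 7 higher, Serpina1a at 0.55). Of these 61 markers 0 passed an adjusted p of 0.05 in limma, 9 (14.8%) had an unadjusted p under 0.05 and 10 (16.4%) did not overlap between strains, beside 3.76% and 7.83% of all genes. When each array was removed in turn, 5 to 8 stellate markers were higher and 6 to 7 lymphocyte markers lower. The mean levels of the lymphocyte, neutrophil and cholangiocyte lists lay near or below the array medians of 7.66 to 7.74, though some of their genes read higher. The size of the differences of these 3 lists is therefore uncertain. The part of cell composition in the differences above was not tested. Hnf4a, a hepatocyte marker, and Lep, an adipocyte marker, are also in the list of regulators. RMA values have no true 0, so no marker can be called absent.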

How the data were processed

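The values are log2 RMA values per probe set (41345 per array), deposited by the authors. RMA (background correction, quantile normalization and probe summary) is named in the submitters' processing notes, and the range of the values shows the log2 scale. For the version of RMA, the probe annotation it used and the build: not given in the sources used here. RNA was labelled from 500 ng per sample, per the labels' protocols. Arrays have no read depth: their number limits the precision.

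Genes were named through GEO's platform annotation, which can be old: 23521 probe sets had 1 symbol, 1814 several and 16010 none. Only the former were used, and for the 1082 genes with several probe sets the brightest on average was kept. limma 3.58.1 in R 4.3.3 (lmFit, eBayes, no covariate, Benjamini-Hochberg over 22180 genes, threshold 0.05, no filter) gave differences, Balb/cBy minus Balb/c, with moderated SE. The fit was tested on simulated data. Correlations over arrays were tested by exact two-sided permutation of all pairings, with at least 0.00139 possible.

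The genes and lists were chosen with earlier results of these data known. All 9 desaturases and elongases were named. Of each pathway list, up to 4 genes with an unadjusted p under 0.05, or else the 2 with the smallest p, were named by rule. Hsd17b12, Cyb5a, Fasn, Srebf1, Thrsp, Abcd2, Ehhadh, Scp2 and the clock genes other than Hlf and Ciart were named after their values were seen. The 5 genes most like Scd1 were named by Pearson's r, leaving out unnamed gene models. Alternatives were a replicate block, recentred or requantiled arrays, a filter on low values, the mean of a gene's probe sets, another variance model, array weights and leaving out each array. The further steps of the correlations and the removal of arrays for the gene lists were added after the data were seen. Labels call the arrays biological replicates, and no scan batch is given.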

Additional observations from a re-analysis of the deposited data

How the results depend on the processing

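Of all genes, 0 passed the adjusted threshold in limma with the replicate block (511 at an unadjusted p under 0.05, against 833 without it). The same held with recentred arrays, repeated quantile normalization, the mean of probe sets and the trended variance model (798 to 939 at an unadjusted p under 0.05). The filter on low values kept 13787 of the 22180 genes, of which 0 passed and 555 had an unadjusted p under 0.05. With array weights 12 genes passed, and when each array was left out 0 to 3 did (2 when Balb/c replicate 3 was removed, 3 when Balb/cBy replicate 1 was), with 0 of the 9 desaturase and elongase genes among them in each setting. The weight was lowest for Balb/cBy replicate 1 (0.467). The labels name no pairing of same-numbered arrays. Their deviations from the strain means correlated at -0.32, -0.20 and -0.23, and none of the 3 numbers matched best with itself. With 3 arrays a strain, this cannot tell whether same-numbered mice were handled together.

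The number of the 9 genes with a lower mean in Balb/cBy, 5, ran from 3 to 7 when each array was left out. The number without overlap, 2, ran from 2 to 4, in part because fewer arrays overlap less. The share of all genes without overlap, 7.83% with all arrays, then ran from 12.9% to 26.9%. With repeated quantile normalization the 2 were Scd1 and Elovl5 in place of Scd1 and Elovl1, beside 8.73% of all genes, and the cause was not tested. At an unadjusted p under 0.01 in limma, 1 of the 9 remained, Scd1, beside 0.699% of all genes. The list was chosen around Scd1 with its difference known, so nothing is read from this count. No difference of the 9 genes moved by as much as its SD within strains in any of 11 settings. Leaving out 1 of 3 arrays cannot move a difference that far, and the replicate block and the mean of probe sets leave it unchanged. Stability is therefore not read from this, and the difference of Elovl3 ran from -0.91 to -0.10 when each array was left out. The difference of Scd1 stayed negative in all 11, from -1.07 to -0.70. The sign of Fads2 turned in 5 settings, and that of Fads1, Elovl6 and Elovl2 in 2 each. Every one of the 9 genes had 1 probe set, so no other probe set could be read.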

Other observations

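Some genes next to this pathway varied widely from mouse to mouse. They were picked after their values were seen. Insig2, which holds SREBP in the endoplasmic reticulum, read 10.70, 11.07 and 10.86 in Balb/c and 11.69, 10.42 and 10.53 in Balb/cBy, so that Balb/cBy replicate 1 was the highest array. Insig1, a target of SREBP with the same role, read 11.17, 11.16 and 10.97 in Balb/c and 10.13, 11.48 and 11.04 in Balb/cBy, with the same array lowest. Lpin1, a phosphatidate phosphatase that is also regulated by fasting, read 10.99, 9.27 and 9.54 in Balb/c and 9.42, 11.45 and 10.96 in Balb/cBy, a log2 difference of 0.68 (SE 0.57). Removing Balb/cBy replicate 2 gave 0.25, and removing Balb/cBy replicate 1 gave 1.27. Elovl6 was likewise high in Balb/c replicate 1 and Balb/cBy replicates 2 and 3 and low in the other 3 arrays. None of these genes passed the adjusted threshold between strains in limma.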
